A study of Mus musculus with 34 samples.

Results

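Contacts between enhancers and promoters in activated B cells were described as a network. The members were all distinct rows of the filtered Hi-C list, a row being a pair of anchors (short genome intervals found in contact) given by chromosome, start and end on the mouse build mm9. There were 27903 distinct contacts among 32142 listed rows, and 4239 of the contacts stood on 2 rows each. Hi-C crosslinks chromatin, joins DNA ends that lie near each other and sequences the joined pairs, so that a read pair records 2 places that were close in a nucleus.

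The cells were splenic B cells of C57BL/6J mice aged 6 to 8 weeks (the design text spells the strain C56BL/6J), taken as the CD43-negative fraction by magnetic selection and cultured for 3 days (72 h) with LPS (lipopolysaccharide of the bacterial outer membrane) at 10 µg per ml. A growth field gives the same number per µl. Hi-C was made from activated cells only, as 7 sequencing runs of 2 replicates (4 runs of replicate 1 and 3 of replicate 2), and the list pools them, so that no contact has a replicate error and none was compared with resting cells. RNA-seq was made from 2 activated samples and from 2 samples that their titles and source names call resting. Their growth fields, however, describe culture with LPS as well, so the labels do not settle how resting cells were handled, and title and source name set the groups. Nothing in the labels ties the 2 samples of a group to different mice or cultures, and a p-value here is set against the spread of those samples alone, which may be technical. Cells that a CD43 selection leaves besides B cells can be part of either group, and their markers are given below for each sample.

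Promoters are the stretches of DNA where transcription starts, and enhancers are stretches that raise transcription from a promoter that can lie far away along the chromosome. The chromosome fibre folds, and loops held by CTCF and cohesin, together with the grouping of active chromatin, bring some distant pairs near each other. In B cells, LPS acts through Toll-like receptor signalling, drives division and moves a share of the cells toward antibody secretion. Per the series design, the list holds contacts that join enhancers found by a reporter assay (STARR-seq) and open chromatin (FAIRE-seq) to promoters active by RNA-seq. That anchors lie at expressed genes and at enhancer peaks was therefore set by how the list was made. All peak and super-enhancer lists used below are labelled as of activated cells, so no peak was compared with resting cells. STARR-seq samples were taken at an earlier and a later time of the reporter assay, and the STARR peak list does not separate them.

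All 6 B cell markers were high in every RNA sample: Ms4a1, the gene of the B cell surface protein CD20, stood at 682 and 855 FPKM (fragments scaled to transcript length and mapped reads) in resting and 467 and 323 in activated cells. The sum of the 6 was nevertheless lower in activated samples, at 4362 and 3412 FPKM against 7663 and 8468 in resting samples. The summed FPKM of 9 myeloid markers was 388 and 738 in resting and 3.01 and 9.59 in activated samples, and that of 4 erythroid markers was 420 and 2467 against 11.7 and 4.35. For 9 T cell markers the sums were 154 and 153 against 42.5 and 27.9, mostly from Cd2, and for 5 natural killer cell markers 6.67 and 22.2 against 1.01 and 0.392. Since the T cell sums came mostly from 1 gene, they do not measure T cell content. In both activated samples the value listed for the T cell genes Cd3d, Cd3e and Cd3g and the macrophage genes C1qa and C1qb was 0. These markers moved with the groups, and their part in the RNA differences below was not tested. In such bulk samples fewer cells of a type and less RNA per cell cannot be told apart. Of these 27 genes listed as markers of other cells, 3 lay in the contact network, Cd2 with 5 partners, Itgam with 2 and Hbb-b1 with 4.

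The promoters of 5 genes that lead the results are printed first: those of the leading gene in each of the 4 most linked places, and that of Xbp1, where the contact with the most reads lay. They are the 250 bases before the annotated start, 5′ to 3′ on the gene's strand, from RefSeq on GRCm38.p6, a later build than that of the contacts. Capitals mark any of 4 motifs searched on both strands: a CTCF core (CCA, AG and GGC in that order, with 2 free letters between neighbours), the GC box GGGCGG, the ETS core CCGGAAG and the E box CACGTG. The E box was added after these sequences had been seen.
Cdk4 (chr10:127063285-127063534, plus strand): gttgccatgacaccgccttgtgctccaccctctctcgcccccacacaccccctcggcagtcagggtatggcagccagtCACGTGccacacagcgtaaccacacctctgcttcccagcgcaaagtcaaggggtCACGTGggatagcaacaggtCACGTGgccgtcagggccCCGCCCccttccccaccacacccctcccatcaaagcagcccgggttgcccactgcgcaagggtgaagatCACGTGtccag
Slc39a7 (chr17:34031691-34031940, minus strand): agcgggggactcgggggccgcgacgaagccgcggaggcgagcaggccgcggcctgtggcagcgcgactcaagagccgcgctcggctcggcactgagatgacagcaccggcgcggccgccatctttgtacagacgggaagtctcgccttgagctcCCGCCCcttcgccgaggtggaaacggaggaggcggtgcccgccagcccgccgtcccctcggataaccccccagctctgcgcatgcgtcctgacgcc
Map4k2 (chr19:6340910-6341159, plus strand): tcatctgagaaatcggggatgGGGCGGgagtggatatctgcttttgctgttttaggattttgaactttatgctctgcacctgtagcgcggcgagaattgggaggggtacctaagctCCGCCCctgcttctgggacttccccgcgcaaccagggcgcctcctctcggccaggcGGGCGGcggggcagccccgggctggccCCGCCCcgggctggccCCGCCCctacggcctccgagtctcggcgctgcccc
Eef2 (chr10:81176381-81176630, plus strand): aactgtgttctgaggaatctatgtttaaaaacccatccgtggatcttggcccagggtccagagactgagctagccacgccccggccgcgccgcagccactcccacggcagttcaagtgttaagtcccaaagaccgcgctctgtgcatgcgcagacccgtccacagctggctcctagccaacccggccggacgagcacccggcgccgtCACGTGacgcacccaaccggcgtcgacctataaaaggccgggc
Xbp1 (chr11:5520391-5520640, plus strand): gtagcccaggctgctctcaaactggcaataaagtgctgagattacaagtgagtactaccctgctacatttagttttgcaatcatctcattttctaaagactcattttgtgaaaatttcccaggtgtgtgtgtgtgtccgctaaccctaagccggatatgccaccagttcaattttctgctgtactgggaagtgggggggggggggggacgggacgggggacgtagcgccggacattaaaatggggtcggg

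The Cdk4 window held 4 E boxes and 1 GC box, the Map4k2 window 5 GC boxes, the Slc39a7 window 1 GC box and the Eef2 window 1 E box. The Xbp1 window held none of the 4 motifs, and none of the 5 windows held the CTCF core. G and C made up 72.4% of the Slc39a7 window, 67.2% of Map4k2, 64.4% of Cdk4, 62.8% of Eef2 and 50.4% of Xbp1. Of the 49 gene loci named below in the 20 most linked places, 38 had a promoter in the table, with 56 windows. Among those windows 42 (75%) held a GC box, against 32.7% of all 32851 promoter windows of the same length. The ETS core stood in 17.9% against 6.91%, the E box in 12.5% against 6.02% and the CTCF core in 1.79% against 2.07%. The median G and C content was 62.2% in the 56 windows and 52.4% over all, so that the GC box and the base composition rose together. The comparison set held promoters whatever their RNA, while the named loci were picked for high RNA in a list built on active promoters. No share was taken for other expressed genes or other contact regions, so these differences cannot be read as traits of hubs. A match is a run of letters only.

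All contacts joined 2 places on the same chromosome. The distance between anchor midpoints ran from 0.015 kb to 14.96 Mb with a median of 371 kb, and 2960 contacts (10.6%) spanned at least 3 Mb. Anchors came in 4 widths, and the median distance rose with width. The 1595 contacts of 500 bp anchors had a median distance of 6.13 kb, the 3202 of 1 kb anchors 78.3 kb, the 6929 of 2 kb anchors 232 kb and the 16177 of 5 kb anchors 1298 kb. A statement on how far contacts reach is thus a statement about the 5 kb class, which made up 58.0% of contacts and 99.7% of those over 3 Mb.

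**Figure D1:**
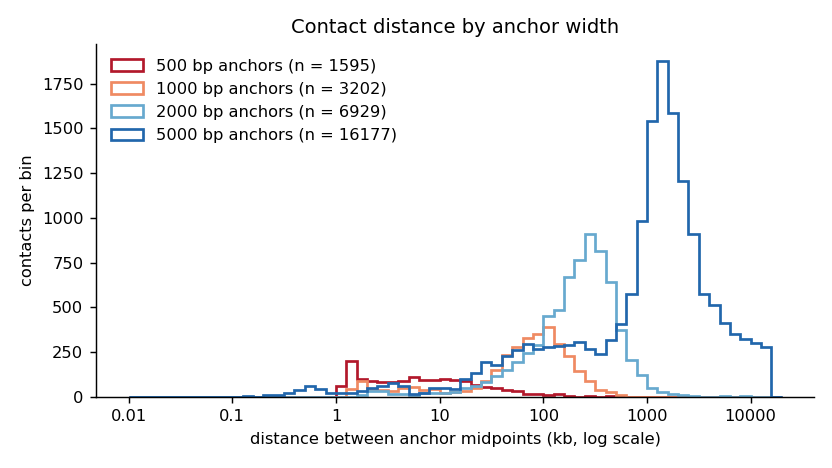
Number of distinct contacts by distance between anchor midpoints (kb, log scale), 1 line for each anchor width. Each wider class lies further to the right, with medians of 6.13, 78.3, 232 and 1298 kb, and the 5 kb class ends at 14.96 Mb.

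Read counts were low in most contacts. The count ran from 5 to 382 read pairs with a median of 7, and 8626 contacts (30.9%) stood at 5, the lowest count in the list. Over all contacts the Spearman rho of distance and reads was -0.53 (n = 27903, a description, since contacts share libraries and anchors). It was -0.27 within 500 bp anchors, -0.60 within 1 kb, -0.74 within 2 kb and -0.84 within 5 kb anchors, so the fall of reads with distance was steeper in rank within the wide classes than over the mixture. In 5 kb anchors the median count was 186.5 below 5 kb, 66 from 20 to 100 kb, 37 from 100 to 300 kb, 11 from 300 to 1000 kb, 6 from 1 to 3 Mb and 5 beyond.

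The z-score went the other way. It started at 3.00, had a median of 4.19 and reached 69.3, and its rho with distance was 0.41 over all contacts and 0.58, 0.73, 0.58 and 0.77 from the narrowest to the widest anchors. Among the 5299 contacts of 5 kb anchors with exactly 5 reads, which therefore cannot differ in count, the z-score still ran from 3.00 to 18.1 and its rho with distance was 0.96. At that count the z-score followed the distance nearly rank for rank. The 2960 contacts over 3 Mb had a median of 5 reads, at most 24 reads, and no z-score under 5.07.

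**Figure D2:**
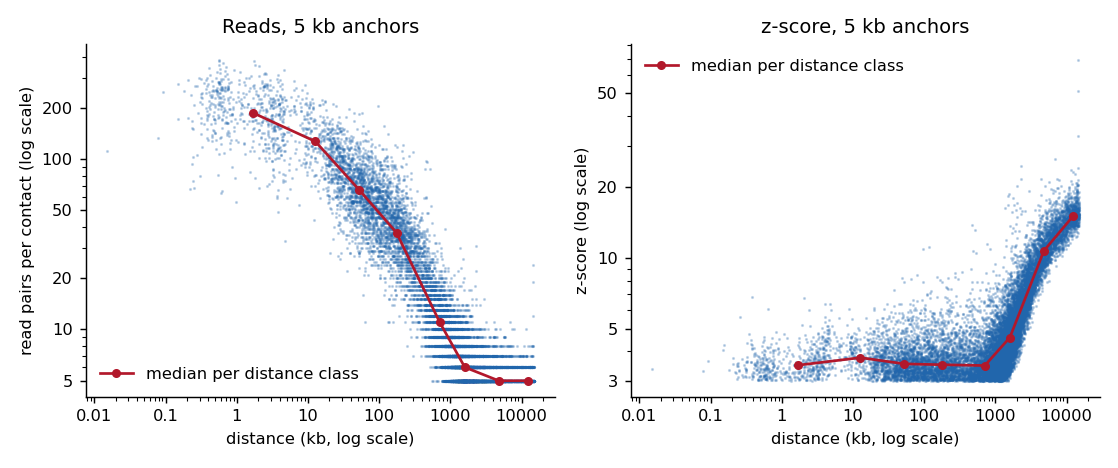
Read pairs (left) and z-score (right) of the 16177 contacts of 5 kb anchors against distance, all axes on log scales; a dot is a contact and red points are medians of 8 distance classes. Reads fall from a median of 186.5 to 5 with distance, while the median z-score stays near 3.5 up to 1000 kb and rises to 15.1 beyond 10 Mb.

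The 3 contacts with the most reads each joined a place to itself. At Xbp1, which encodes a transcription factor of the unfolded protein response needed by antibody-secreting cells, chr11:5415808-5420808 and chr11:5415251-5420251 were joined by 382 read pairs at a distance of 0.557 kb. The contact at Hist3h2a, a histone H2A gene, had 378 read pairs and that at Zbtb32, a zinc finger repressor gene, 375. In all, 544 contacts had anchors that overlap, 532 of them in the 5 kb class, with a median of 184 reads, and they made up 97 of the 100 contacts with the most reads. Where anchors lay apart, the highest counts were 289 at Trmt1, 273 between Rfxank and an anchor beside Mef2b, and 260 at Esyt1, all within 10 kb of each other.

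The highest z-scores belonged to 2 contacts on chromosome 11 between Rdm1, a gene tied to DNA repair, and Tex14, a gene of germ cell intercellular bridges. They spanned 14.23 and 14.25 Mb with 24 and 19 read pairs and z-scores of 69.3 and 51.3. The third was a contact of 500 bp anchors between Rnls and Atad1, 514 kb apart, with 6 read pairs and a z-score of 45.6. The longest contact joined Hip1 and Ddx54 over 14.96 Mb on 5 read pairs (z-score 14.6), followed by Dmpk and Six5 with Tmem238 over 14.94 Mb on 6 and Calr with Gatad2a over 14.93 Mb on 5. The 24 read pairs of the Rdm1 contact are the highest count of any contact over 3 Mb.

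Taken exactly as listed, the anchors hardly formed a network. There were 55788 distinct anchors, of which 55770 had 1 contact and 18 had 2, and none had 3 or more. The graph therefore fell into 27885 components, 27867 of them a single pair of anchors and 18 a chain of 3. Anchors of different contacts often overlapped without having the same coordinates. Overlapping anchors (by at least 1 base) were then merged into regions, and all that follows on hubs uses these regions. Where several rows joined the same 2 regions, the pair was given the highest read count of its rows, since anchors of different widths can count the same reads, and the z-score of that same row. Distances of pairs are between region midpoints.

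Merging gave 10618 regions with a median width of 6683 bp (500 to 39898 bp) and 21075 linked pairs of regions. Another 1903 contacts fell within 1 region. A region had a median of 3 partners and a mean of 3.97. There were 2369 regions (22.3%) with 1 partner, 639 (6.02%) with at least 10, and the highest number was 32. The share of linked triples that closed into a triangle was 0.151.

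**Figure D3:**
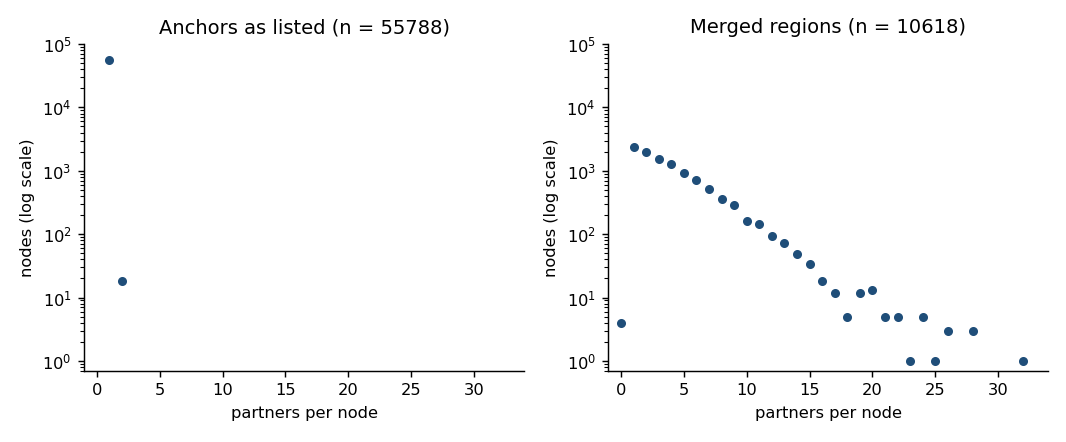
Number of nodes (log scale) by partners per node, for the 55788 anchors as listed (left) and the 10618 merged regions (right). The anchors stop at 2 partners, while the regions run down from 2369 with 1 partner to a single region with 32.

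Width moved with the number of partners. Spearman's rho of partners and region width was 0.81 over the 10618 regions, and that of partners and the number of gene loci inside was 0.40. Wider regions gather more anchors, and regions are wide where many shifted anchors overlap, so width and linkage cannot be told apart in this graph. The 107 regions with the most partners (1 in 100, ties broken by summed reads) had a median width of 15667 bp against 6638 bp for the others. In a network of fixed 10 kb bins, 71 of the 107 regions overlapped 1 of the 131 most linked bins. Just inside the limit lay regions with 15 partners and just outside it also regions with 15, since 118 regions had at least 15.

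The 107 hub regions touched 1858 of the linked pairs (8.82%), and 134 pairs joined 2 hubs. Pairs that touched a hub had a median distance of 1157 kb against 802 kb for the others, and 17.2% against 13.7% spanned at least 3 Mb.

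Promoter marks rose with the number of partners. H3K4me3, a histone mark of active promoters, was present in 52.8% of regions with 1 partner, 67.9% with 2, 83.2% with 3 to 5, 93.3% with 6 to 9, 98.1% with 10 to 14 and 98.3% with 15 or more. H3K27ac, a mark of active promoters and enhancers, went from 67.1% to 98.3% and STARR peaks from 72.1% to 98.3% over the same classes. Regions without any gene locus went from 34.6% to 1.69%. Wider regions can hold more peaks, so the same was read among regions 5 to 7 kb wide: H3K4me3 stood in 54.6% of 1636 regions with 1 partner and 90.6% of 202 with 6 to 9, and H3K27ac in 69.6% and 93.6%. Super-enhancers, long domains of H3K27ac, overlapped 0.253% of regions with 1 partner and 5.93% with 15 or more. Among regions 5 to 7 kb wide the shares were 0.306% (5 of 1636) with 1 partner and 0.495% (1 of 202) with 6 to 9. The rise over all widths thus cannot be told apart from region width, with a median of 5000 bp at 1 partner and 15341 bp at 15 or more. No test was made, since the authors chose contacts with the promoters and enhancers of these cells in view.

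At the level of contacts, 86.5% had a STARR peak at 1 end and an H3K4me3 peak at the other. H3K4me3 was present at both ends of 63.6% of contacts. The 4239 contacts on 2 rows differed from the rest: 97.5% of them had H3K4me3 and 99.9% had a STARR peak at both ends, against 57.5% and 36.4% of contacts on 1 row. A second row thus went with contacts in which both ends carried both features.

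The network held 175 components, 71 of them a single pair of regions. Each component lay on 1 chromosome, and 26 components of at least 100 regions held 89.2% of all regions. The largest was on chromosome 11, with 882 regions (8.31%) and 2039 linked pairs over 118.4 Mb, nearly the whole chromosome. Chromosome 2 had the second, 667 regions over 142.5 Mb, followed by chromosome 9 (535 regions), 17 (521) and 8 (515). The most linked regions of these 5 were those of Hist3h2a (22 partners), Rtfdc1 and Cass4 (17), Qrich1, Wdr6 and Dalrd3 (20), Slc39a7 (28) and Junb (22). On chromosomes 8, 9, 11, 17 and 19 at least 97.0% of regions were joined in the largest component, against 42.4% on chromosome 16 and 15.04% on X. Without the 2960 contacts of 3 Mb or more there were 441 components and the largest held 3.72% of regions.

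Contacts followed the expressed genes of a chromosome, apart from X. Over the 20 chromosomes the number of contacts and the number of loci at 1 FPKM or more in both activated samples (9981 loci in all) had a Pearson r of 0.93 and a Spearman rho of 0.95, given as a description since both scale with chromosome size. Chromosome 11 held 2910 contacts (10.4%) for 856 such loci. Per locus there were 2.80 contacts on all chromosomes together, 3.74 on chromosome 10, 3.58 on 17 and 3.38 on 19. Chromosome X had 137 contacts (0.491%) for 311 expressed loci, or 0.441 per locus, and the next lowest was chromosome 12 with 2.19. In relation to H3K4me3 peaks X stood apart as well, with 0.292 regions per peak against 0.552 to 0.702 on the autosomes. No X region had more than 7 partners.

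**Figure D4:**
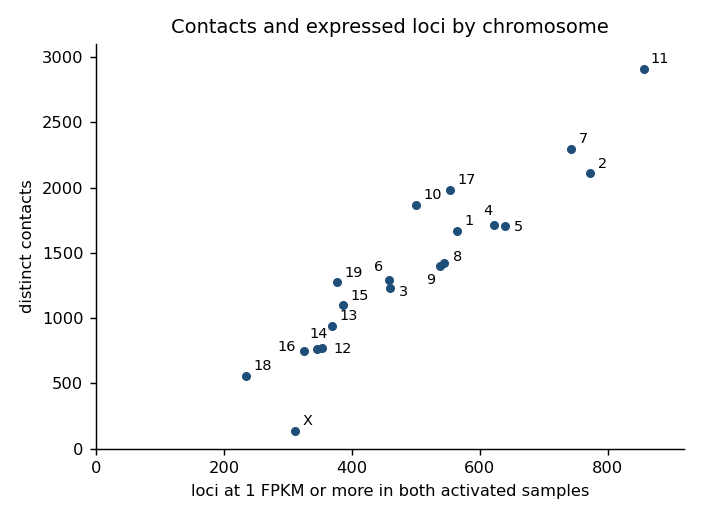
Distinct contacts of each chromosome against its number of gene loci at 1 FPKM or more in both activated RNA samples; a point is a chromosome. Chromosome 11 is highest on both axes, 10 and 17 lie above their neighbours, and X lies far below with 137 contacts for 311 loci.

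Hub regions were spread unevenly. Chromosome 10 held 15 of the 107, chromosome 19 held 14, and chromosomes 7, 11 and 17 held 12 each, while 12, 14, 16, 18 and X held none. The distance of contacts differed too: the median was 217 kb on chromosome 17 and 223 kb on 11, and 807 kb on chromosome 4 and 800 kb on 13.

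The most linked region, chr10:126494724-126521050, had 32 partners. It contained Cdk4, the cyclin-dependent kinase that drives cells through G1 with D-type cyclins, with Tspan31 and Agap2. Its partners lay 29.7 kb to 9.69 Mb away with a median of 1487 kb, and no pair had more than 13 read pairs. The strongest pairs went to Nabp2 and Rnf41 (1340 kb, 13 read pairs, z-score 4.93) and to Wibg and Dgka (1673 kb, 13 read pairs, z-score 8.40), followed by Esyt1 with 11. Another partner held Cdk2, a kinase of the G1 to S transition, at 1631 kb with 9 read pairs. Of the 32 partners 26 had H3K4me3, 29 had H3K27ac and 27 a STARR peak. Over all 10618 regions the shares were 76.3%, 84.0% and 77.1%. The list was built from promoters and enhancers, so such marks at partners are not particular to this hub.

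Cdk4 RNA was 40.9 and 44.3 FPKM in resting and 118 and 148 in activated samples. The groups did not overlap, and the log2 change was 1.61 ± 0.20 (SE; limma on log2(FPKM + 1), Benjamini-Hochberg adjusted p = 0.000971). The neighbouring Tspan31, a tetraspanin gene, rose by 1.45 ± 0.17 (limma adjusted p = 0.000672). Agap2 had 8.72 and 8.98 FPKM in resting and 6.48 and 7.54 in activated cells and did not pass (limma adjusted p = 0.132).

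A pair of regions of the major histocompatibility complex on chromosome 17 had 28 and 25 partners. The first, chr17:34156660-34174121, held Slc39a7, a zinc transporter of the secretory pathway, with Rxrb, a nuclear receptor, and H2-Ke6. The second, chr17:34041045-34062204, held Tapbp, the tapasin gene for loading peptides on class I molecules, with Daxx and Zbtb22. Unlike the Cdk4 region, the first had near and well covered partners: a median distance of 286 kb, 74 read pairs to a region without a gene locus at 50.2 kb, 65 to Rps18, Vps52 and Wdr46 at 74.2 kb, 62 to H2-Oa at 70.2 kb, 31 to Psmb8, Tap1 and Tap2 at 173 kb and 27 to H2-Ob at 208 kb. The 2 regions were themselves linked, with 15 read pairs over 114 kb. The second had 147 read pairs to Kifc1, a kinesin gene, at 21.8 kb.

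Genes of the Slc39a7 hub did not share a direction. Slc39a7 rose from 35.6 and 38.8 FPKM to 84.9 and 117 (log2 change 1.40 ± 0.22, limma adjusted p = 0.00216). H2-Ke6 in the same region fell from 22.2 and 24.4 FPKM to 9.37 and 8.12, a log2 change of -1.32 ± 0.15 (limma adjusted p = 0.000701). Rxrb between them went from 28.0 and 32.6 to 25.3 and 23.8 and did not pass (limma adjusted p = 0.172). Tapbp, at 104 and 102 FPKM in resting and 151 and 138 in activated cells, did not pass either (limma adjusted p = 0.0737), although its groups did not overlap.

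The region with Map4k2, a kinase of the stress kinase pathway, and Men1, the menin gene, at chr19:6327351-6345174 had 28 partners with a median distance of 726 kb and none beyond 3 Mb. Its strongest pair went to Cdc42bpg at 30.6 kb with 118 read pairs, and it was linked to the hub of Fkbp2, a folding enzyme of the endoplasmic reticulum, at 722 kb with 14. Map4k2 had 29.7 and 31.4 FPKM in resting and 15.4 and 13.5 in activated cells, a log2 change of -1.03 ± 0.15 (limma adjusted p = 0.00189). Men1 moved the other way, from 15.3 and 17.7 to 24.6 and 26.4 FPKM (0.60 ± 0.16, limma adjusted p = 0.0170). Its call was lost without resting replicate 1 (limma adjusted p = 0.151) and without resting replicate 2 (0.0595). Fkbp2 rose from 11.7 and 14.7 to 46.6 and 49.2 FPKM (1.79 ± 0.17, limma adjusted p = 0.000329).

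A stretch of chromosome 10 held several linked hubs. Eef2, the translation elongation factor that moves the ribosome along the message, lay with Dapk3 and Pias4 at chr10:80625992-80647517 (28 partners). Zbtb7a at 37.2 kb with 113 read pairs was its strongest partner. Atp5d, an ATP synthase subunit, with Midn and Dos at chr10:79601491-79617421 (24 partners) and Cirbp, a cold-inducible RNA-binding protein, at chr10:79624768-79637894 (22 partners) were joined by 172 read pairs over 21.9 kb. The hub of Cnn2, Tmem259 and Abca7 (20 partners) was linked to all 3, with 10, 82 and 69 read pairs.

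Eef2 had the highest RNA level of the named hub genes, 572 and 631 FPKM in resting and 1381 and 1263 in activated samples (log2 change 1.14 ± 0.25, limma adjusted p = 0.00890). Without resting replicate 1 or 2 that p became 0.0799 or 0.0522. Cirbp fell from 70.6 and 62.9 to 14.4 and 13.8 FPKM, a log2 change of -2.16 ± 0.16 (limma adjusted p = 0.000136), the largest of the named hub loci. Atp5d, its partner over 21.9 kb, went from 93.1 and 109 to 172 and 182 FPKM (0.80 ± 0.21, limma adjusted p = 0.0159, and 0.149 or 0.0661 without resting replicate 1 or 2). The closely joined hubs of Atp5d and Cirbp thus contained genes with opposite RNA differences. In some other hubs all named genes were called higher in the fit of all 4 samples. These were Fkbp2, Ppp1r14b and Vegfb (log2 changes 1.79, 1.53 and 0.52), Utp11l, Sf3a3 and Fhl3 (0.98, 0.88 and 0.76), and Bst2 and Mvb12a (1.95 and 0.85).

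Some hubs reached far. Cdkn1b, the gene of the cell cycle inhibitor p27, lay at chr6:134865079-134884114 with 26 partners, 18 of them at 3 Mb or more, and a median distance of 5.72 Mb. Its pairs had 5 to 12 read pairs. Among the partners were Cd69, an early activation marker, at 5.65 Mb with 8 read pairs, a region without a gene locus at 5.69 Mb with 9 (z-score 17.2), and the cell cycle factor gene Foxm1 with Rhno1 at 6.56 Mb with 6. The region of Mcmbp, a partner of the replicative helicase, and Sec23ip had 24 partners, 15 of them at 3 Mb or more, with a median of 6.06 Mb and at most 10 read pairs. Cdkn1b RNA was 55.2 and 67.6 FPKM in resting and 39.8 and 43.3 in activated samples, a log2 change of -0.55 ± 0.19 (limma adjusted p = 0.0449). That call was lost with any 1 of the 4 samples left out (limma adjusted p = 0.0651 to 0.287).

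Histone genes formed a hub across a gap. Clustered histone genes supply nucleosomes during DNA replication and lie in groups on chromosome 13. The region with Hist1h4i, Hist1h2bj and Hist1h2bk, chr13:22108040-22147938, was the widest of all (39.9 kb) and had 24 partners with a median of 13 read pairs, the second highest median among the 20 most linked regions. Its partners across about 1.5 Mb included Hist1h4h (1495 kb, 26 read pairs, z-score 18.3), Hist1h4d (1547 kb, 20, z-score 18.6), Hist1h4f (1518 kb, 19, z-score 16.7) and Hist1h1c (1708 kb, 13, z-score 12.8). Abt1, in a region with 19 partners of its own, was joined by 30 read pairs over 1393 kb.

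Of the 57 Hist1 loci with RNA values, 36 lay in 14 regions between chr13:21810854-23859449, all in 1 component. These regions were joined by 37 pairs, 18 under 1 Mb and 19 from 1 to 3 Mb. The 19 long pairs had a median of 12 read pairs and a median z-score of 13.6, against 6 and 4.59 over all 6790 pairs of regions at that distance. The 18 short pairs had a median of 18.5 read pairs and a z-score of 4.14, against 10 and 3.62 over all 11342 pairs under 1 Mb. Near-identical histone genes can exchange reads in mapping, and the part of this in the counts was not tested. Of the 5 contacts over 1 Mb with the most reads, 4 ended in this stretch (31, 30, 26 and 23 read pairs), and the other was that of Rdm1 and Tex14.

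Hist1h4i RNA went from 5.41 and 7.58 to 21.0 and 17.9 FPKM (log2 change 1.46 ± 0.19, limma adjusted p = 0.00113). In the same region Hist1h2bk went from 0.535 and 0.785 to 1.89 and 2.44 FPKM and was called higher (limma adjusted p = 0.00424). Both of its resting values were under 1, so it passed the filter through its activated values alone. Hist1h2bj beside it was not called (limma adjusted p = 0.144). Of 25 tested Hist1 loci 12 (48%) were higher, 0 lower and 13 not called, against 28.2% higher and 26.2% lower over all tested loci. Most of the 57 were too low to be tested. Their medians were 0.267 and 0.538 FPKM in resting and 1.32 and 0.696 in activated samples. A locus near that floor can pass the filter through its activated values alone and then cannot come out lower. The 48% is therefore no evidence of a rise of the set. In the list of clustered histones 3 of 13 tested genes were called (23.1%), against 54.4% over all. RNA of most clustered histone genes lacks a poly(A) tail, and whether the library selected for it is not given in the sources used here, so these levels may miss most of their RNA. Hist1h4a, in a region of 15 partners, was at 1.57 and 2.63 FPKM in resting and 3.90 and 4.78 in activated cells (0.80 ± 0.22, limma adjusted p = 0.0195, and 0.158 or 0.0710 without resting replicate 1 or activated replicate 2). Hist3h2a on chromosome 11, with 22 partners and 243 read pairs to Rnf187 at 16.2 kb, fell from 10.3 and 12.1 to 6.07 and 5.96 FPKM (-0.80 ± 0.15, limma adjusted p = 0.00509, and 0.0616 without resting replicate 2).

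Of the 20 most linked regions, 2 overlapped super-enhancers. Zfp36, which encodes the mRNA-destabilising protein tristetraprolin, lay with Plekhg2 and Med29 in a region of 23 partners, joined to Rps16 at 27.1 kb by 99 read pairs. Junb, an AP-1 transcription factor gene, lay with Prdx2 and Hook2 in a region of 22 partners, joined to Asna1 at 43.8 kb by 70 read pairs and to Jund, another AP-1 gene, over 14.29 Mb by 5. The RNA of both early response genes varied within groups: Junb had 160 and 78.4 FPKM in resting and 109 and 71.6 in activated samples (limma adjusted p = 0.475), and Zfp36 had 295 and 202 against 182 and 95.1 (limma adjusted p = 0.0733, and 0.0126 without activated replicate 1). Plekhg2 beside Zfp36 fell from 25.1 and 22.9 to 11.7 and 6.70 FPKM (log2 change -1.34 ± 0.24, limma adjusted p = 0.00420).

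Among the remaining named hubs, Tgfb1, an inhibitory cytokine gene, fell from 86.3 and 84.9 to 49.3 and 38.5 FPKM (-0.96 ± 0.20, limma adjusted p = 0.00699, and 0.0505 without resting replicate 1). Its region had 22 partners, all with at most 9 read pairs. Bst2, the interferon-induced tetherin gene, rose from 20.2 and 26.3 to 117 and 72.1 FPKM (1.95 ± 0.27, limma adjusted p = 0.00141) in a region of 21 partners that included Jak3 at 130 kb with 40 read pairs. Exosc5 of the RNA exosome and Bckdha (26 partners), the zinc finger genes Fiz1, Zfp865 and Zfp524 (24), Utp11l and Sf3a3 of ribosome and splicing factors (24) and Hnrnpf, an RNA-binding protein gene (22), made up the rest.

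**Figure D5:**
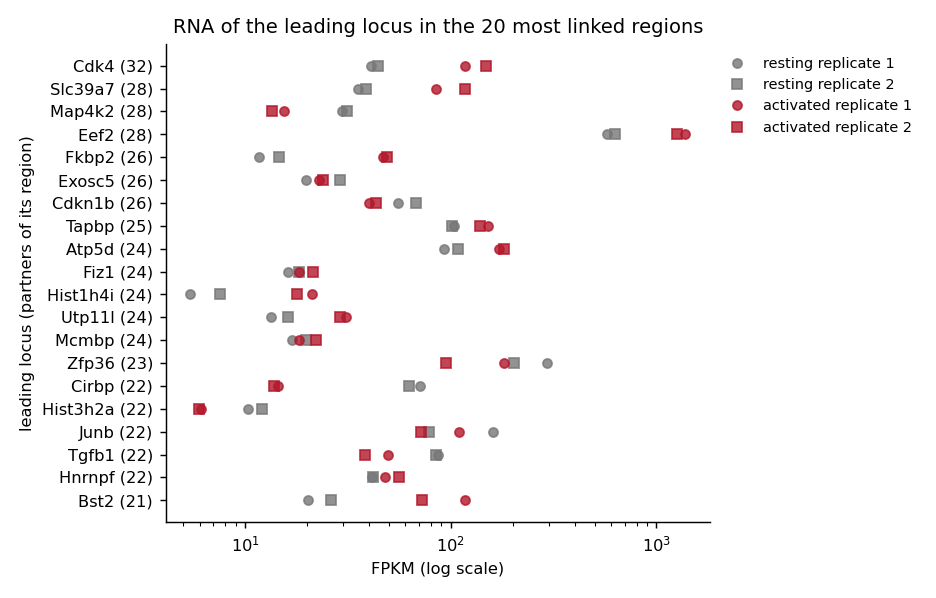
RNA level (FPKM, log scale) of the leading locus in each of the 20 most linked regions, with the region's partners in brackets; grey is resting, red is activated, circles replicate 1 and squares replicate 2. Cdk4, Fkbp2, Hist1h4i and Bst2 lie higher in both activated samples, Map4k2, Cirbp and Tgfb1 lower, and Exosc5, Fiz1, Mcmbp and Junb overlap between groups.

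Of the 49 named loci in the 20 most linked regions 48 were tested, and 17 were called higher and 12 lower in activated cells (limma, adjusted p under 0.05), or 60.4%. Over all 10863 tested loci 54.4% were called, 28.2% higher and 26.2% lower. Of the 29 calls 14 held with each of the 4 samples left out in turn, with 16 left without resting replicate 1 and 17 without resting replicate 2. All loci of the 107 hub regions gave 122 calls of 243 tested (50.2%), 66 higher and 56 lower, with a median log2 change of 0.05 against 0.03 over all tested loci. Read against the background, hub loci were called about as often as other loci. Without resting replicate 1 or 2 the count of called hub loci fell to 67 or 70, and over all loci to 2964 or 3324. Anchors as listed gave no usable hubs, since all but 18 were tied: the loci in the first 1 in 100 anchors held 178 calls of 355 tested (50.1%).

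Median RNA levels were higher in loci with more partners, up to the class of 10 to 14. Among loci whose most linked region had at most 1 partner the median level was 6.57 and 6.95 FPKM in resting and 6.95 and 7.02 in activated samples. With 6 to 9 partners it was 11.5, 11.99, 12.4 and 13.3, and with 10 to 14 partners 13.1, 13.6, 13.9 and 15.1. Loci with 15 or more partners stood at 12.7, 14.1, 14.1 and 14.4, above the class of 10 to 14 in 2 samples and below it in the other two. The share called ran from 54.1% (6 to 9 partners) to 48.9% (15 or more). Of the 2285 tested loci outside all regions 59.7% were called, 18.7% higher and 41.0% lower, against 30.8% and 22.2% of the 8578 tested loci inside a region. The list was built from promoters active in activated cells, and 24 of the 27 genes listed as markers of other cells lay outside the network.

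Lists of genes that act together in B cells differed in how linked they were. A tested locus had a median of 4 partners, 79.0% lay in a region and 11.8% had at least 10 partners. All 16 genes of antigen presentation lay in a region, with a median of 11.5 partners, and 13 had at least 10. They led the 12 functional lists, followed by clustered histones (8; 8 of 18 with at least 10), the unfolded protein response and secretion (7; 6 of 17) and class switching (7; 1 of 11). Cell cycle genes had a median of 5.5 (6 of 20), B cell identity, plasma cell and looping factor genes a median of 4 with 1 of 20, 0 of 15 and 1 of 18 at 10 or more. Genes that lie side by side share regions, which bears on the 15 antigen presentation genes on chromosome 17 and on the histones.

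In the antigen presentation list 8 of 16 genes fell and none rose, against 26.2% lower and 28.2% higher over all tested loci, and all 8 calls held with each sample left out. The 8 that fell were the class II genes H2-Aa, H2-Ab1, H2-Eb1, H2-DMa, H2-DMb1, H2-DMb2, H2-Oa and H2-Ob. The 8 without a call were H2-K1, H2-D1, B2m, Tap1, Tap2, Tapbp, Psmb8 and Psmb9, of class I and its peptide supply. H2-Oa and H2-Ob, the class II chaperone DO, had 15 and 17 partners and were joined to each other by 45 read pairs over 137 kb. H2-Oa had 80 read pairs to the DM genes H2-DMb2 and H2-DMb1 at 55.4 kb and 78 to H2-DMa at 37.1 kb. H2-Ob had 78 to Psmb8, Tap1 and Tap2, the immunoproteasome and peptide transporter genes, at 34.3 kb. H2-Oa RNA was 166 and 176 FPKM in resting and 27.1 and 9.35 in activated cells (log2 change -3.33 ± 0.45, limma adjusted p = 0.00199), and H2-Ob was 425 and 440 against 95.4 and 50.5 (-2.62 ± 0.32, limma adjusted p = 0.000852). Tap1, with 17 partners over 2 regions, was at 74.7 and 82.0 against 111 and 89.3 and did not pass (limma adjusted p = 0.196). Linked neighbours here again included genes that fell and genes with no call, and in this list that split followed class.

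In the unfolded protein response list all 17 genes rose, against 28.2% of all tested loci, and 16 of the calls held with each sample left out in turn. Atf6, a membrane-bound transcription factor that senses unfolded protein, had 20 partners and went from 15.7 and 13.8 to 51.3 and 54.3 FPKM (1.78 ± 0.16, limma adjusted p = 0.000264). Calr, a lectin chaperone, and Manf, a secreted stress protein, had 13 partners each. Calr rose by a log2 change of 1.73 ± 0.25 (limma adjusted p = 0.00164) and Manf by 3.09 ± 0.23 (limma adjusted p = 0.000139). Xbp1, the site of the contact with the most reads, had 4 partners and went from 40.5 and 47.2 to 402 and 466 FPKM (3.28 ± 0.21, limma adjusted p = 8.83e-05).

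All 20 cell cycle genes rose too, again against 28.2% of tested loci, and 19 calls held in every such fit. Aurkb, a mitotic kinase, had 16 partners, with 143 read pairs to Pfas and Ctc1 at 28.3 kb and 97 to Tmem107 at 24.7 kb, and went from 4.12 and 5.10 to 43.2 and 66.5 FPKM (3.29 ± 0.23, limma adjusted p = 0.000111). Mcm7 of the replicative helicase had 16 partners over 2 regions, Mcm2 13 and Cdk1 12. Among the 18 looping factors 7 rose and 3 fell, a share near the 54.4% called over all loci. Of those 10 calls 5 were left without resting replicate 1 and 4 without resting replicate 2, and 3 held in all 4 fits. Cdca5, the cohesin-protecting factor sororin, had 19 partners, was linked to the Map4k2 hub (9 read pairs, 255 kb) and rose from 1.64 and 1.89 to 23.9 and 34.02 FPKM (3.42 ± 0.20, limma adjusted p = 6.77e-05). Ctcf itself, named after its values were seen, had 5 partners, the nearest being Fam65a at 11.3 kb with 256 read pairs, and 58.7 and 51.7 FPKM in resting and 51.2 and 66.0 in activated cells (limma adjusted p = 0.766).

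Regulators of B cell fate come next. Prdm1, which encodes Blimp-1, the repressor that starts antibody secretion, had 9 partners over 2 regions of its locus. It was joined to regions without a gene locus at 179, 228 and 542 kb by 53 read pairs each, to others at 148 kb by 40 and at 248 kb by 36, and to Prep at 607 kb by 32. Each of those 5 regions without a gene had a STARR peak and an H3K27ac peak and no H3K4me3 peak. Prdm1 RNA rose from 1.23 and 1.26 to 61.3 and 75.8 FPKM (4.94 ± 0.16, limma adjusted p = 1.58e-05). Of the plasma cell list 11 of 14 tested genes rose and none fell, against 28.2% and 26.2% of all tested loci, and 10 of the calls held in all 4 fits. Of the B cell identity list 16 of 20 fell and none rose, but 10 of the 16 calls were left without resting replicate 1, 10 without resting replicate 2, and 9 held in all 4 fits.

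Pax5, the factor that keeps B cell identity, had 11 partners over 3 regions. They included Zbtb5 and Polr1e at 344 kb (36 read pairs), Grhpr at 304 kb (35) and Zcchc7 at 45.3 kb (32). It fell from 95.9 and 93.8 to 35.4 and 34.9 FPKM (-1.41 ± 0.17, limma adjusted p = 0.000866). Cd79b, a signalling chain of the B cell receptor, had 9 partners, with 212 read pairs to Scn4a at 19.3 kb, and fell from 951 and 1243 to 497 and 373 FPKM (-1.33 ± 0.28, limma adjusted p = 0.00773, and 0.0609 without resting replicate 2).

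Some genes outside the naming rule are given because of their contacts, chosen after these had been seen. Myc, a driver of growth, had 4 partners, with 57 read pairs to Pvt1 at 184 kb and 39 to a region without a gene at 838 kb (z-score 10.9), and rose from 32.7 and 26.2 to 55.3 and 59.4 FPKM (0.94 ± 0.18, limma adjusted p = 0.00560, and 0.0624 without resting replicate 2). Bcl6, a repressor of the germinal centre, had 3 partners, 2 of them at Lpp over 642 and 480 kb with 25 and 21 read pairs. Bach2, a repressor of plasma cell fate, had 4, with 74 read pairs to Casp8ap2 at 24.5 kb. Irf8 had 3, with 128 read pairs to a region without a gene at 35.2 kb.

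Immune signalling genes were spread over the range. Nfkbie, an inhibitor of NF-κB, had 25 partners over 2 regions, Nfkbib 14, and Lta, Ltb and Tnf, cytokine genes that share 1 region, 11. That region had 135 read pairs to Ddx39b at 41.9 kb and 116 to Prrc2a at 27.3 kb. Tnf fell from 15.2 and 14.8 to 7.26 and 6.49 FPKM (-1.02 ± 0.15, limma adjusted p = 0.00155). Among activation genes Ccnd3 had 20 partners and Ccnd2 14, both D-type cyclins. Ccnd2 was joined to regions without a gene at 116 kb by 114 and at 179 kb by 75 read pairs and rose from 17.8 and 16.5 to 102 and 181 FPKM (2.91 ± 0.28, limma adjusted p = 0.000345). Ccnd3 was at 23.8 and 33.4 against 25.7 and 32.9 FPKM, with overlapping groups (limma adjusted p = 0.874).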

How the data were processed

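The submitters' processing notes name Bowtie, Bowtie2, STAR, TopHat2, HOMER and bedtools, without roles or versions, and mm9. In the deposited Hi-C list each contact has 2 anchors and a single read count for all runs, as the authors deposited it. The z-score is the authors' score of a contact against a background; how it was computed is not given in the sources used here. The list's log p-value was not used, and the depth of the Hi-C libraries is not given in the sources used here. The RNA table deposited by the authors holds 23812 loci with a value in each of 4 samples. Its unit is not named; the deposited values were treated as FPKM because they are not whole numbers and sum to between 244602 and 287884 per sample, so that the depth behind a value is unknown and no strand is known. The deposited peak lists give positions only.

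Rows of the contact list with the same first and second anchor were counted once, and no contact was left in both orders. Networks were built with networkx 3.6.1 in Python 3.11.15. The plan used anchors as listed; since these almost never recur, anchors that overlap by at least 1 base were merged for all that concerns hubs. Contact coordinates are as listed on mm9. A locus belongs to a region that it overlaps. RNA was tested with limma 3.58.1 (R 4.3.3, trend and robust) on log2(FPKM + 1) for loci at 1 or more in at least 2 samples, with Benjamini-Hochberg adjustment over all 10863 tested loci and a threshold of 0.05, without a block; folds on this scale understate low genes. The network measures have no replicate and no test.

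Named genes were up to 3 loci with the highest mean RNA in each of the 20 most linked regions, up to 4 members with the most contacts per list, and loci in the 3 contacts with the most reads, the highest z-score and the greatest length and in the most linked region of the 5 largest components, leaving out predicted, date-like and repeated names. The members and lists were chosen with earlier results of these data known. Promoter sequences are from RefSeq, GRCm38.p6. Alternatives were the node definition, read, z-score and distance limits, the pseudocount (0.1), no filter, each sample left out, and a replicate block.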

Additional observations from a re-analysis of the deposited data

How the results depend on the processing

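The network depends on what counts as a node, and no part of it has a replicate. From 55788 anchors as listed, a largest degree of 2, 27885 components, 0.00538% of anchors in the largest component, a median distance of 371 kb and a rho of distance and reads of -0.53, merging of overlapping anchors led to 10618 regions, 32, 175, 8.31%, 834 kb and -0.61. Bins of 10 kb, chosen after seeing the data, gave 13096, 28, 332, 8.46%, 700 kb and -0.60. With anchors as listed, contacts at or above the median read count gave 28834 anchors, 14412 components, 171 kb and -0.51, those at or above the median z-score 27898, 13946, 1203 kb and -0.42, and those under 3 Mb 277 kb and -0.46. Merged regions were also rebuilt with limits chosen after seeing the data: from the median read count up they gave 8847 regions, a largest degree of 19, 967 components, 2.26% in the largest, 261 kb and -0.62. From the median z-score up the values were 9043, 25, 495, 7.73%, 1609 kb and -0.45, under 3 Mb 10457, 28, 441, 3.72%, 500.3 kb and -0.55, and with 5 kb anchors alone 9657, 25, 277, 8.29%, 1349 kb and -0.82. The sign of the rho was the same in all of these.

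With 1 RNA sample left out, called loci numbered 2964 to 5693 over all loci (5910 with all 4 samples), 101 to 197 in the first 1 in 100 anchors as listed (178) and 67 to 122 in merged hub regions (122); the lone sample is then assumed to vary like the other group. For loci in hubs, 5 in 100 anchors as listed gave 872 calls of 1662 tested (52.5%). In the same way 5 in 100 merged regions gave 469 of 939 (49.9%) and 10 kb bins 96 of 190 (50.5%), against 54.4% over all tested loci. A pseudocount of 0.1 gave 5874 calls over all loci and no filter 5892, but of 16684 tested, so that the share called went from 54.4% to 35.3%, and from 50.2% to 39.8% in merged hub regions. Same-numbered samples are not said to share a source, and with 2 pairs the Pearson r of their replicate differences was 0.12. With a replicate block 6281 loci were called over all (57.8%). The block gave 199 calls of 355 tested (56.1%) in anchors as listed and 130 of 243 (53.5%) in merged hub regions. Among named hub loci the block changed 1 call, that of Zfp36 (limma adjusted p = 0.0148 with it and 0.0733 without). Of 48 tested named hub loci, 13 lost their call without resting replicate 1 and 12 without resting replicate 2, and none reversed a call. At 5 read pairs, the lowest count listed, counting error alone is large, and a contact that is missing from the list cannot be called absent.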

Other observations

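Of the 48 super-enhancers in the authors' list 46 overlapped a region, with a median of 6.5 partners, and 17 had at least 10. Over all regions the median was 3 partners and 6.02% had at least 10. Partners rose with region width (Spearman's rho 0.81), so this difference cannot be told apart from the width of regions at super-enhancers. Most linked were those at Zfp36 (chr7:29156120-29171855, 23 partners) and Junb (chr8:87498749-87510645, 22), then one without a named gene in the class II stretch of chromosome 17 (chr17:34428052-34439479, 17) and those at Rilpl2 and at Prkd2 with Strn4 (16 each). Some others, picked here after their values were seen, were those at Coro1a (13), Brd2 with H2-DMa (12), Cd52 (11), Pax5 (9), Cd79b (9), Laptm5 (8), Il21r (7) and Ikzf1, the Ikaros gene (3). The 2 without a region lay on chromosomes 12 and 16.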
